A study of Homo sapiens with 2 samples.

Results

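Antisense genes are annotated genes that lie on the strand opposite to another gene and are named after it, with the ending AS and a number. Of the 16645 annotated genes with a read in native RNA of GM12878, 350 carried such a name, and the 115 of them with 10 or more reads over all their transcript models and both libraries are described here. They were chosen by their name and selected on their summed read counts, so their levels are a description without a test. At the edge of the choice, 7 genes had exactly 10 reads and 3 genes of the same naming had 9. GENCODE release 29, a human gene annotation, lists 1222 genes named in this way.

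GM12878 is an Epstein-Barr virus-transformed B-lymphoblastoid cell line, grown here without any labelled treatment. Its RNA was depleted and read strand by strand by Oxford Nanopore direct RNA sequencing in 2 libraries, replicates 1 and 2, which form 1 group. The labels do not say whether the libraries came from separate cultures, so every p-value measures only the difference between these libraries. Replicate 1 held 1360368 reads and replicate 2 held 1510998, so that 1 read was worth 0.735 and 0.662 CPM, the usual unit for counts scaled to library size. All 6 B cell marker genes examined had reads, 1799 in replicate 1 and 2048 in replicate 2 together, while 7 of 11 markers of T, myeloid, erythroid, liver and fibroblast cells had none and the 11 together had 11 and 27.

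Antisense transcription is often found where a promoter fires in both directions, where the 3′ ends of neighbouring genes run into each other, or inside the introns of a gene. Some antisense RNAs act on the gene they face, some act elsewhere in the cell, some are hosts from which small RNAs are cut, and for many no role is known. Direct RNA sequencing reads the RNA strand itself, so an antisense strand is told from a sense strand by the read. A read is 1 strand whatever its length, and levels of different genes are therefore compared in CPM, not per length.

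The 115 genes received 2558 reads in replicate 1 (0.188% of the library, 95% Wilson interval 0.181 to 0.195%) and 3082 in replicate 2 (0.204%, 0.197 to 0.211%), a mean of 0.196% ± 0.0113 (SD, n = 2). A single gene, LRRC75A-AS1, accounted for 41.9% and 46.3% of them in the 2 libraries. Without it, an alternative chosen after seeing the data, the share of the library was 0.109% in replicate 1 and 0.110% in replicate 2. Most of the genes were read rarely: 5 had 100 or more reads in all, 5 had 50 to 99, 54 had 20 to 49 and 51 had 10 to 19. The median gene had 21 reads and a mean of 7.24 CPM, while the lowest had 3.38 CPM. All 115 had a read in both libraries.

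**Figure D1:**
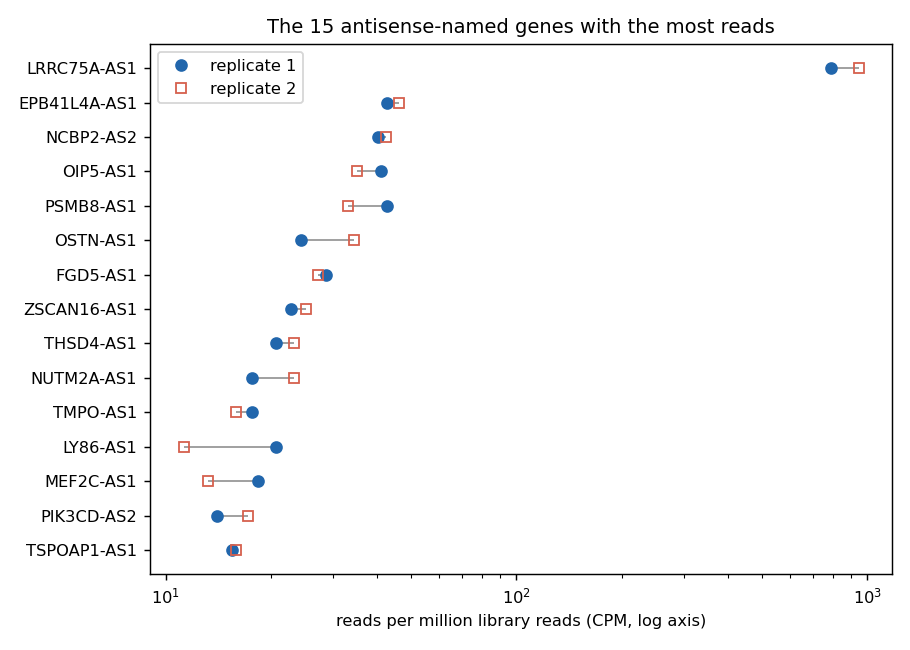
CPM (log axis) of the 15 antisense-named genes with the highest mean, with replicate 1 as filled circles and replicate 2 as open squares, joined by a line. LRRC75A-AS1 stands at 788 and 944 CPM, and the other 14 lie between 11.3 and 46.3 CPM.

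LRRC75A-AS1 (chromosome 17, 16438822 to 16478678, plus strand, GRCh38) had 1072 reads in replicate 1 and 1427 in replicate 2, or 788 and 944 CPM, a mean of 866 CPM ± 111 (SD, n = 2). It ranked 164th among all annotated genes with a read. It is a host gene of small nucleolar RNAs, which guide chemical modification of ribosomal RNA and are released from longer precursors, and newer gene tables call it SNHG29. GENCODE places SNORD49B, SNORD49A and SNORD65 on its strand within its bounds. Their sequences are shown because they are the annotated small RNA content of the member with the most reads. They are given 5′ to 3′ from GENCODE release 29, with the C box letters TGATGA and the last CTGA, the D box letters, in capitals.
SNORD49B (chr17:16439505-16439576, plus strand): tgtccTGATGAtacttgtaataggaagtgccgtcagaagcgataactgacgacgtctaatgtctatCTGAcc
SNORD49A (chr17:16440036-16440106, plus strand): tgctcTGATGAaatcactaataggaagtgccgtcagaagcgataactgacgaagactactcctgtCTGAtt
SNORD65 (chr17:16441226-16441298, plus strand): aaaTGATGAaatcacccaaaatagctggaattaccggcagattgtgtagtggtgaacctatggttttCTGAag

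The small nucleolar RNAs themselves were hardly read as genes of their own, with 0 and 1 read for SNORD49B, 0 and 2 for SNORD49A, and 4 in each library for SNORD65. Reads of the host gene were spread over 52 models, but 2 of them held most. The first, ENCODEHT000306022, has 4 exons and 1149 bases and received 553 and 561 reads, which were 51.6% and 39.3% of the gene's reads. The second, ENCODEHT000312283, has 1 exon and 647 bases and received 271 and 501 reads, or 25.3% and 35.1%. Both are incomplete splice matches (ISM), models that cover part of an annotated transcript's exon chain. The 4-exon model is of the suffix subtype, which keeps the 3′ end. The annotated transcript with the most reads, LRRC75A-AS1-209 of 5 exons, had 70 and 60 reads. The gene on the other strand, LRRC75A, a leucine-rich repeat gene whose bounds overlap LRRC75A-AS1 over 37102 bases from the opposite end, had 1 read in replicate 1 and 0 in replicate 2, where 0 allows up to 1.99 CPM (3 reads, counting error only).

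The next 4 genes lay between 37.9 and 44.5 CPM, and they differed in kind. EPB41L4A-AS1 (chromosome 5, 112160526 to 112164276, plus strand), which holds the small nucleolar RNA gene SNORA13, had 58 and 70 reads, a mean of 44.5 CPM ± 2.61 (SD, n = 2). Of these, 93.8% were in known models, which match an annotated transcript, and 50 and 60 were in the 3-exon transcript EPB41L4A-AS1-201 of 2969 bases. NCBP2-AS2 (chromosome 3, 196942623 to 196943540, plus strand), which GENCODE types as protein-coding, had 55 and 64 reads, all in its single annotated transcript of 1 exon and 918 bases, a mean of 41.4 CPM ± 1.36 (SD, n = 2). It lay below EPB41L4A-AS1 in both libraries.

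OIP5-AS1 (chromosome 15, 41283990 to 41309737, plus strand), a conserved cytoplasmic noncoding RNA also known as Cyrano, had 56 and 53 reads, a mean of 38.1 CPM ± 4.31 (SD, n = 2). Its annotated 4-exon transcript of 8829 bases was read 14 and 15 times, and a 1-exon ISM model of 1199 bases 17 times in each library. AC087721.2, a protein-coding gene with 83 reads in all, overlaps OIP5-AS1 on the same strand. The assignment of single-exon reads between these genes is therefore uncertain, and models of 2 or more exons held 49.5% of the reads of OIP5-AS1. PSMB8-AS1 (chromosome 6, 32844086 to 32846495, plus strand) lies in the class II region of the major histocompatibility complex and had 58 and 50 reads, a mean of 37.9 CPM ± 6.75 (SD, n = 2). It overlaps PSMB9, another immunoproteasome gene, on its own strand, which had 799 reads in all, so the assignment of single-exon reads between these genes is uncertain. Genomic models, whose reads lie on a gene but follow none of its splice patterns, held 38.9% of the reads of PSMB8-AS1. The ranges of OIP5-AS1 and PSMB8-AS1 over the 2 libraries overlapped.

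To ask how far the libraries gave the same levels, each gene's split of reads was set against the totals of both libraries in an exact binomial test, two-sided. It ran over all 10634 annotated genes with 10 or more reads; p-values were adjusted by Benjamini-Hochberg, and 0.05 was the threshold. Of the antisense-named genes, 2 of 115 passed, both higher in replicate 2, against 5.05% of all genes tested (537 genes, 2.72% higher and 2.33% lower in replicate 2). With a median of 21 reads against 64 in the other genes tested, most of these genes could pass only with a large difference. An unadjusted p under 0.05 was reached by 8 of the 115 and by 1681 of all genes tested. By direction alone 58 were higher and 57 lower in replicate 2.

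The log2 ratio of replicate 2 to replicate 1 was 0.26 for LRRC75A-AS1, with an adjusted p of 0.000458 in the exact binomial test. Its reads in models of 2 or more exons numbered 801 and 925, or 589 and 612 CPM, a log2 ratio of 0.06. Its reads in 1-exon models numbered 271 and 502, or 199 and 332 CPM. The higher total in replicate 2 thus lay mostly in 1-exon reads. Counted in known models only, the gene had 175 and 189 reads and no longer passed (adjusted p of 0.289, exact binomial test). That count was scaled to the known-model reads of each library, so its log2 ratio of 0.24 is not comparable with the ratios above. The median over all genes so counted was -0.26. With fewer reads than in the full count, only a larger difference could pass. OR2A1-AS1 (chromosome 7, 144300395 to 144356181, minus strand) had 2 reads in replicate 1 and 18 in replicate 2. This is a log2 ratio of 2.74, and the exact binomial test gave an adjusted p of 0.0155. It lies in a duplicated cluster of olfactory receptor genes, where reads of near-identical copies can be split, and 0 and 10 of its reads were in genomic models. Without genomic models, and scaled to the library reads outside them, its log2 ratio was 1.69 and it did not pass (adjusted p of 0.389, exact binomial test).

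**Figure D2:**
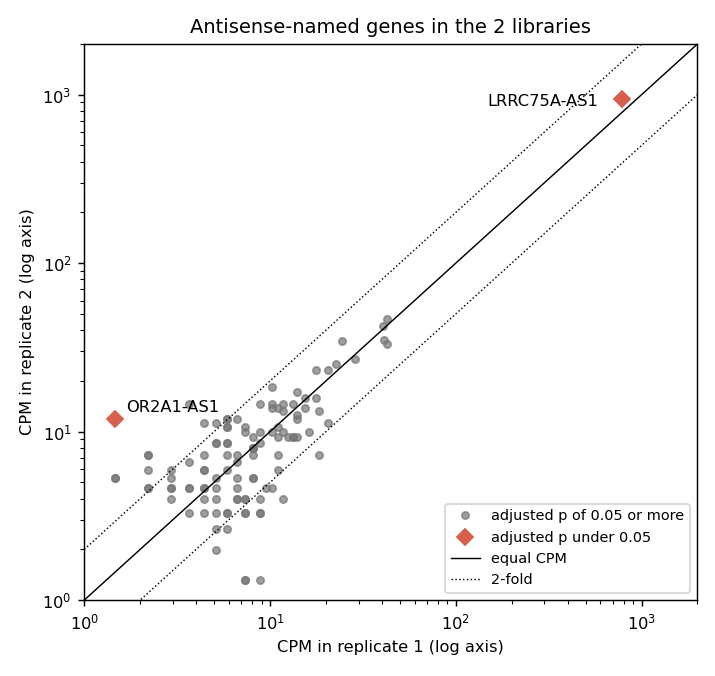
CPM of the 115 antisense-named genes in replicate 1 (horizontal) and replicate 2 (vertical), both on log axes, with the line of equal CPM and dotted lines at 2-fold. Red diamonds are LRRC75A-AS1 and OR2A1-AS1, the 2 genes with an adjusted p under 0.05, and 93 of the 115 genes lie within a log2 ratio of 1 of equality.

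Within a log2 ratio of 1 lay 80.9% of the antisense-named genes and 91.5% of all genes tested. Genes outside that range and short of the threshold included DDN-AS1, with 5 and 22 reads (adjusted p of 0.0571), ALOX12-AS1, with 12 and 2 reads (adjusted p of 0.0834), and TRG-AS1, which faces the T cell receptor gamma locus, with 16 and 6 reads (adjusted p of 0.184, exact binomial tests with Benjamini-Hochberg adjustment). These 3 were named after their values were seen. With a minimum of 20 reads in place of 10, DDN-AS1 passed as well.

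The reads of these genes were then divided by the category of their model. Beside known, ISM and genomic models there are models that join known splice sites in combinations not annotated (NIC) and models in which 1 or more splice sites are themselves not annotated (NNC). Known models held 28.7% of the antisense reads in replicate 1 (Wilson interval 27.0 to 30.5%) and 24.5% in replicate 2 (23.0 to 26.1%), a mean of 26.6% ± 2.94 (SD, n = 2). In the other 10519 genes with the same minimum the share was 56.7% in replicate 1 and 46.5% in replicate 2. ISM models held 45.2% ± 3.22, genomic models 16.3% ± 1.36, NIC models 6.56% ± 1.61 and NNC models 5.34% ± 0.0244 (SD, n = 2). LRRC75A-AS1, with 84.4% of its reads in ISM models, set much of this.

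Without LRRC75A-AS1, known models held 35.9% ± 2.37, genomic models 29.3% ± 4.03, ISM models 14.3% ± 0.575, NIC models 11.3% ± 2.26 and NNC models 9.10% ± 0.0276 (SD, n = 2). The corresponding values in all other genes were 51.6, 13.0, 28.2, 3.50 and 3.71%. In both libraries the genomic, NIC and NNC shares of these 114 genes lay above, and the known and ISM shares below, those of all other genes. The same order was seen in both libraries in other classes of noncoding genes. LINC genes, intergenic noncoding genes named LINC and a number, had means of 27.0% known, 21.6% genomic, 27.3% ISM, 12.9% NIC and 11.3% NNC. For ISM their order was within counting error. Their share was 23.3% in replicate 1 (Wilson interval 20.6 to 26.3%) and 31.3% in replicate 2 (28.6 to 34.2%), against 24.1% and 32.3% in all other genes. Other genes typed antisense or lincRNA had 31.1, 36.7, 16.5, 7.95 and 7.79%. For known models the order of the antisense-named and all other genes held for pooled reads only. The median gene had 24.2% of its reads in known models among the 115 and 18.5% among all other genes. No test of these shares between gene classes was made, since genes are not replicates.

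**Figure D3:**
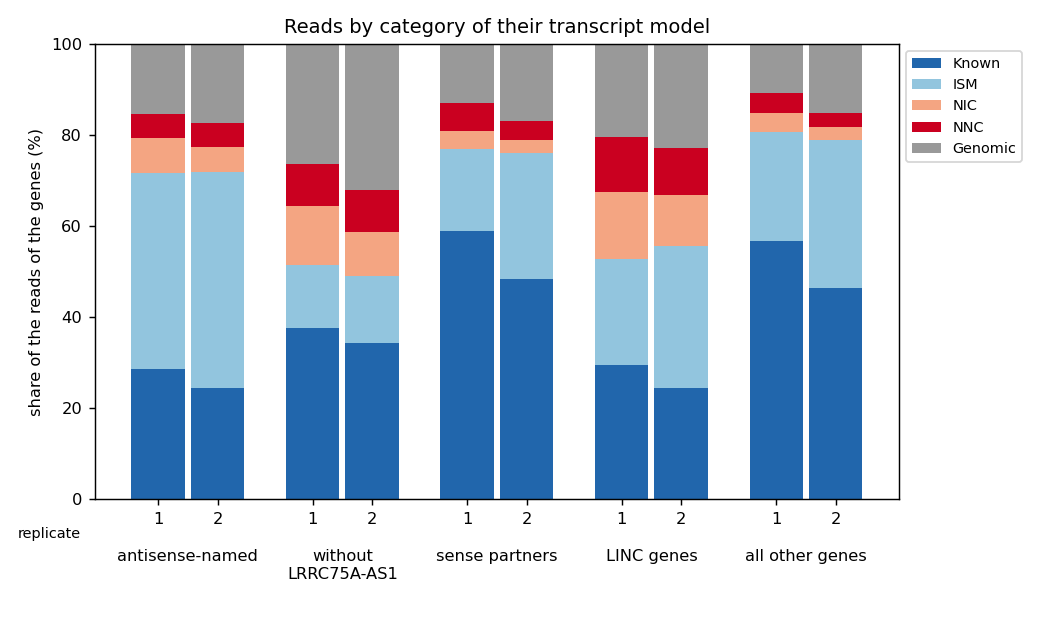
Stacked shares (percent of reads) of known, ISM, NIC, NNC and genomic models in each library for the antisense-named genes, for these without LRRC75A-AS1, for their sense partner genes, for LINC genes and for all other genes with 10 or more reads. Without LRRC75A-AS1 the grey genomic part is 26.4% in replicate 1 and 32.1% in replicate 2, against 10.8% and 15.2% in all other genes.

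Reads were also divided by the number of exons of their model. A model of 2 or more exons shows splicing, while a 1-exon model can be an unspliced RNA, a part of a spliced one or, as in NCBP2-AS2, a gene annotated with 1 exon. Models of 2 or more exons held 66.8% of the antisense reads in replicate 1 (65.0 to 68.6%) and 58.3% in replicate 2 (56.5 to 60.0%), and in all other genes 78.0% and 71.7%. This order held for pooled reads only. The median gene had 63.2% of its reads in such models among the 115 and 59.1% among all other genes. The share was lower in replicate 2 in 70 of the 115 genes, higher in 34 and equal in 11. A Fisher's exact test per gene over the 10634 genes, with Benjamini-Hochberg adjustment, called LRRC75A-AS1 alone, or 0.870% of the 115 genes, against 10.4% of all genes tested (10.4% lower and 0.0282% higher in replicate 2). An unadjusted p under 0.05 was reached by 3 of the 115 (2.61%) and by 20.9% of all genes tested. With a median of 21 reads against 64 in the other genes tested, most of the 115 could pass only with a large difference. These counts therefore do not show a steadier share: pooled, it changed by -8.58 percentage points in the 115 and by -6.29 in all other genes. In LRRC75A-AS1 the share of reads in models of 2 or more exons fell from 74.7% in the first library to 64.8% in the second, and Fisher's exact test gave an adjusted p of 7.10e-06.

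Some of the genes were read mainly in known models, and others had no read in them. Known models held more than 50% of the reads in 32 genes, genomic models did so in 26, and 26 genes (22.6%) had no read in a known model, against 16.1% of all other genes. All other genes had more reads, a median of 64 against 21, and the effect of this was not tested. The share without a read in a known model was 33.3% in LINC genes and 30.5% in other genes typed antisense or lincRNA, both above that of the 115. Among genes with 50 or more reads, the known share was highest in NCBP2-AS2, EPB41L4A-AS1 and ZSCAN16-AS1 (82.6%), followed by PSMB8-AS1 (30 of 58 and 24 of 50 reads) and OIP5-AS1 (37.6%). ZSCAN16-AS1 (chromosome 6, 28121795 to 28137293, minus strand) had 31 and 38 reads, of which 25 and 32 were in a 2-exon transcript of 1536 bases.

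At the other end stood THSD4-AS1 (chromosome 15, 71147650 to 71189042, minus strand), with 28 and 35 reads in 1 genomic model of 1 exon and 459 bases. HMGB1P6, a pseudogene copy of the chromatin protein gene HMGB1, overlaps it on the same strand and had 27 reads, so these reads are of uncertain origin. FGD5-AS1 (chromosome 3, 14920347 to 14948424, minus strand) had 39 and 41 reads, 93.8% of them in genomic models, and 57 of the 80 were in a single model of 590 bases. NUTM2A-AS1, from a family of near-identical copies, had 24 and 35 reads with 27.1% in genomic models, spread over 35 models. TMPO-AS1 had 24 reads in each library with 81.2% in genomic models, chiefly a 1-exon model of 2121 bases. TSPOAP1-AS1 had 21 and 24 reads, 57.8% of them genomic, beside 2 and 3 reads of TSPOAP1.

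OSTN-AS1 (chromosome 3, 191213291 to 191234605, minus strand) was the gene with the most reads among those without a read in a known model. It had 33 and 52 reads, of which 55.3% were in NIC, 23.5% in ISM and 15.3% in NNC models. Models of 2 or more exons held 94.1% of its reads. Its NIC model ENCODEHT000542891, of 4 exons and 959 bases, was read 12 and 13 times. OSTN, the gene of the secreted muscle and bone peptide osteocrin inside which it lies, had 0 and 1 read. The other NIC or NNC models with 10 or more reads were in NAALADL2-AS2 (5 and 8 reads, 3 exons), in KCNJ2-AS1 (3 and 9 reads, 2 exons) and in P3H2-AS1 (4 and 6 reads, 4 exons).

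Incomplete models differed in which end they kept. Over all 115 genes, models of the prefix subtype, with the 5′ but not the 3′ end, made up 5.74% and 4.79% of the ISM reads in the 2 libraries, against 5.80% and 4.21% in all other genes. LRRC75A-AS1 held most of the ISM reads. Outside it, prefix models made up 30.4% of the ISM reads in replicate 1 (24.6 to 37.0%) and 27.9% in replicate 2 (22.6 to 33.8%). In LINC genes, intergenic noncoding genes named LINC and a number, the prefix share was 15.4% and 7.06%, and in other genes typed antisense or lincRNA 18.6% and 12.5%. Outside LRRC75A-AS1, suffix models held 32.4% and 29.1%, against 36.9% and 28.5% in LINC genes and 68.5% and 68.1% in all other genes. Models given neither subtype held 35.3% and 42.2%, against 15.4% and 17.4% in all other genes. Prefix reads occurred in 32 of the 74 genes with ISM reads, but PIK3CD-AS2 alone gave 38 of the 131. That gene had 19 and 26 reads, and 16 and 22 of them were in the 2-exon prefix model ENCODEHT000290969 of 645 bases, while its known models had 1 read in all.

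Positions in the annotation showed how each gene lies to the gene before its hyphen. For 113 of the 115 a gene of that symbol is in GENCODE release 29, always on the other strand of the same chromosome. PIK3CD is shared by PIK3CD-AS1 and PIK3CD-AS2, so these pairs hold 112 sense genes, all typed as protein-coding. In 45 pairs the genes overlap head to head, and in 10 they diverge without overlap. In 28 pairs they overlap tail to tail, in 19 the antisense gene lies inside the sense gene, and in 11 the sense gene lies inside the antisense gene. Exons of the pair share bases in 85 of 113 pairs, with a median of 306 bases. In the 55 pairs that start outward from each other, the annotated starts lay a median of 581 bases apart, and in 41 of them at most 1000 bases.

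**Figure D4:**
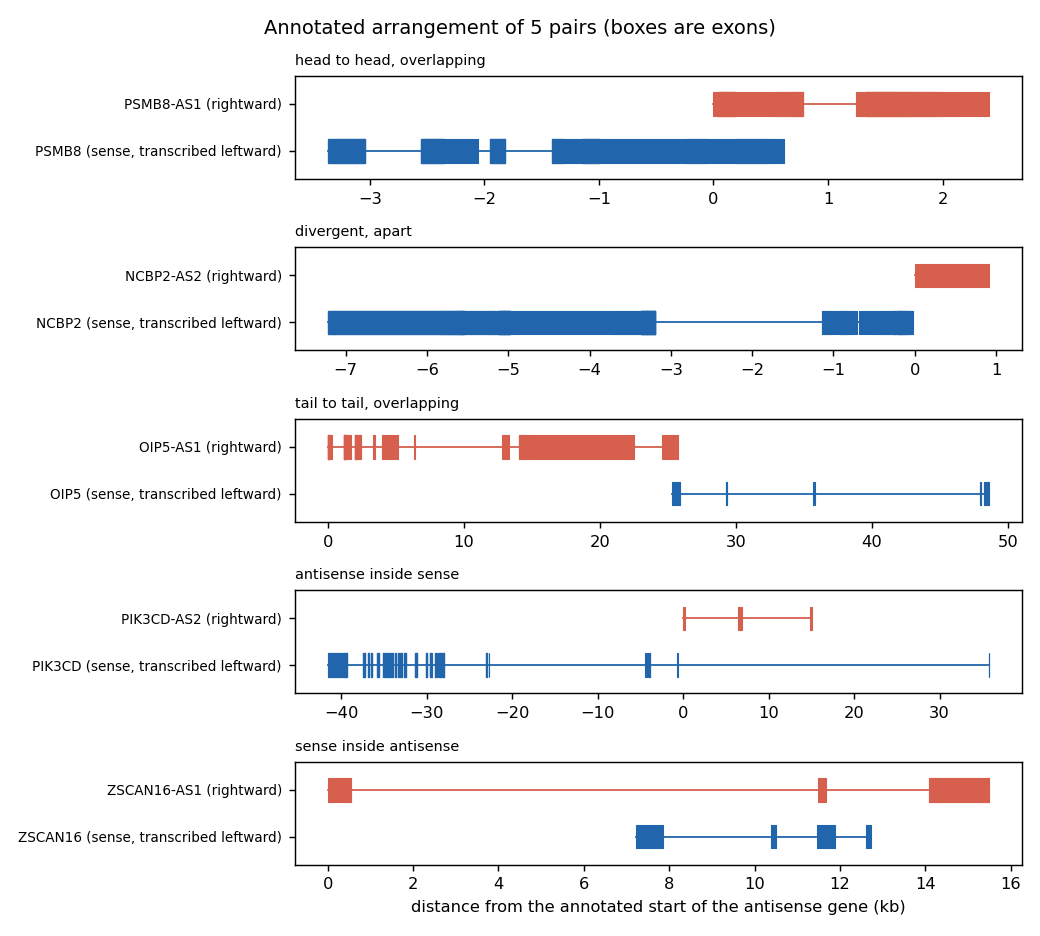
Gene maps of the pair with the most antisense reads in each arrangement, among pairs with 10 or more sense reads, with the distance from the start of the antisense gene in kilobases. Lines are gene bounds, boxes are exons of all annotated transcripts, red is the antisense gene (PSMB8-AS1, NCBP2-AS2, OIP5-AS1, PIK3CD-AS2 and ZSCAN16-AS1, drawn rightward) and blue the sense gene.

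The 10 divergent pairs start 7 to 1376 bases apart. For 5 of them the stretch between the starts is shown, so that the closeness of these starts can be seen. These are the stretches of 30 or more bases that lie whole in the matched RefSeq window of the antisense gene, so shorter, wider and unmatched ones are left out, and none of the 5 holds an annotated exon of release 29. They run 5′ to 3′ on the strand of the antisense gene, from the RefSeq promoter table for GRCh38.p14, with each CG dinucleotide in capitals.
TRIM52-AS1 and TRIM52 (chr5:181261140-181261211, plus strand): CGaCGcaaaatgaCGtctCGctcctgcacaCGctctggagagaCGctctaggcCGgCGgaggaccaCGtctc
SCAMP1-AS1 and SCAMP1 (chr5:78360508-78360582, minus strand): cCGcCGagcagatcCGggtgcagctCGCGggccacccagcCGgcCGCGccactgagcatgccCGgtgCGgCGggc
UBL7-AS1 and UBL7 (chr15:74461183-74461264, plus strand): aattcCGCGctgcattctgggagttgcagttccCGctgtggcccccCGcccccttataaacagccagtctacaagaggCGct
UBA6-AS1 and UBA6 (chr4:67701180-67701279, plus strand): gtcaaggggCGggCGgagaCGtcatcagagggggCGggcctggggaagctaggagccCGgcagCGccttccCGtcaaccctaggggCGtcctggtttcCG
RAB30-AS1 and RAB30 (chr11:83071924-83072065, plus strand): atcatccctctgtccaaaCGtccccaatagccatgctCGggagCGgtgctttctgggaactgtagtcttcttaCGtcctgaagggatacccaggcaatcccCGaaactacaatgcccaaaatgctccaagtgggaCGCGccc

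The 5 stretches are 72 to 142 bases long and hold 5 to 11 CG dinucleotides each. The levels on both sides of them were not alike from pair to pair. UBA6-AS1 had 18 and 22 reads beside 23 and 28 of UBA6, which activates ubiquitin. UBL7-AS1 had 25 and 11 reads beside 201 and 208 of UBL7. TRIM52-AS1 had 14 and 15 reads beside 3 and 5 of TRIM52, a ubiquitin ligase gene. SCAMP1-AS1 had 8 and 9 beside 8 and 17 of SCAMP1, a membrane protein of secretory carriers, and RAB30-AS1 had 8 and 5 beside 13 and 16 of RAB30, a Golgi GTPase. The antisense gene was above its partner in both libraries for TRIM52-AS1 and below it in both for UBA6-AS1, UBL7-AS1 and RAB30-AS1.

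RefSeq promoter windows, from 250 bases before to 50 bases after a start, were matched for 89 of the 115 genes. A window was called CpG-rich when its CpG count was at least 0.6 times that expected from its C and G and its GC content was at least 50%. This held for 64 of the 89 (71.9%), for 71.4% of 91 windows of sense genes and for 46.9% of all 27305 windows. The set of all windows was not limited to genes with reads here, whereas the members were selected on their reads. Windows of a member and its sense gene can share bases where their starts are close. The letters CCAAT, searched on both strands, were in 34.8% of the members' windows and in 35.7% of all windows. TATAAA, searched likewise, with matches that may overlap those of CCAAT, was in 4.49% of the members' windows and in 12.0% of all. These are matches of letters in a fixed window and were not tested.

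Antisense and sense levels were then set side by side within each pair. The antisense gene had more reads than the sense gene in 41 of 113 pairs and fewer in 72. It was above in both libraries in 35 pairs and below in both in 67. In 12 pairs the sense gene had no read, among them those of EPB41L4A-AS1, FGD5-AS1, THSD4-AS1 and NUTM2A-AS1. Over the 101 pairs with a sense read, the median ratio of antisense to sense CPM was 0.390, with quartiles of 0.108 and 1.34. Taken library by library it was 0.357 over 97 pairs in replicate 1 and 0.253 over 98 pairs in replicate 2.

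**Figure D5:**
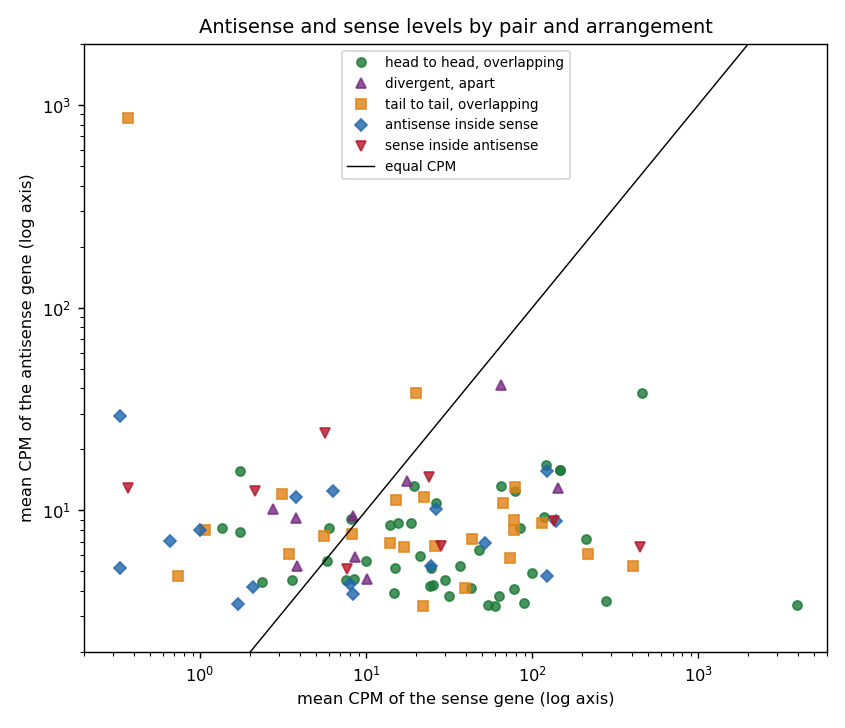
Mean CPM of the sense gene (horizontal) and the antisense gene (vertical), on log axes, for the 101 pairs with a sense read, with a symbol for each arrangement and the line of equal CPM. LRRC75A-AS1 is the point at the upper left and TPT1-AS1 the point at the far right, and 72 pairs of the 113 have more sense than antisense reads.

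Across these 101 pairs antisense and sense level showed little relation, with Spearman's rho of -0.02 and Pearson's r of log2 CPM of -0.16. Without LRRC75A-AS1 and TPT1-AS1 the values were 0.04 and 0.03. Both levels come from the same libraries, and the antisense level was cut at 10 reads. By arrangement, the median ratio was 0.173 in the 44 head-to-head pairs with a sense read and 0.324 in 24 tail-to-tail pairs. It was 0.642 in 8 pairs with the sense gene inside, 0.784 in 9 divergent pairs and 1.26 in 16 pairs with the antisense gene inside. Over all pairs of an arrangement, the median sense level was 26.4 CPM in head-to-head pairs and 3.79 CPM where the antisense gene lies inside, while the median antisense levels of these arrangements were 5.66 and 8.01 CPM. No test of the arrangements was made.

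Among pairs with 10 or more sense reads, the highest ratio was that of ZSCAN16-AS1, whose 31 and 38 reads faced 9 and 7 of the zinc finger gene ZSCAN16, a ratio of 4.26. PCED1B-AS1 had 19 and 14 reads against 4 and 7, a ratio of 3.07. OTUD6B-AS1 had 15 and 11 reads against 4 and 7 of OTUD6B, a deubiquitinase gene, a ratio of 2.42. USP30-AS1 had 16 and 20 against 10 and 8 of USP30, a mitochondrial deubiquitinase gene, a ratio of 1.98. OIP5-AS1, whose single-exon reads are of uncertain assignment, had 56 and 53 against 23 and 35 of OIP5, a gene of centromere assembly, a ratio of 1.90. In each of these pairs the antisense gene was above the sense gene in both libraries.

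The lowest ratios belonged to pairs with abundant sense mRNAs. TPT1-AS1 had 3 and 7 reads against 5308 and 5932 of TPT1, the gene of the translationally controlled tumour protein, a ratio of 0.000874. RALY-AS1 had 7 and 3 reads against 373 and 432 of RALY, an RNA-binding protein gene, a ratio of 0.0127. PCBP1-AS1, inside whose bounds PCBP1 lies, had 8 and 11 reads against 619 and 658, a ratio of 0.0148. PSMA3-AS1 had 12 and 5 reads against 327 and 296 of the proteasome gene PSMA3, a ratio of 0.0278. The starts of TPT1-AS1 and TPT1 lie 25 bases apart, and those of RALY-AS1 and RALY 711.

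Among the pairs, 12 antisense genes face 11 sense genes that are known from immune cells, a list written after the values had been seen. The list follows no fixed rule, so its counts describe these pairs only. The sense gene had more reads in all 12 pairs, as in 72 of all 113, and the ratio ran from 0.0341 to 0.469. PSMB8-AS1 had 58 and 50 reads against 603 and 706 of PSMB8, an inducible catalytic subunit of the immunoproteasome. LY86-AS1 had 28 and 17 against 200 and 224 of LY86, whose product pairs with the B cell surface protein RP105. MEF2C-AS1 had 25 and 20 against 216 and 207 of MEF2C, a transcription factor used in B cells. Neither LY86-AS1 nor MEF2C-AS1 had a read in a known model, and 75.6% and 57.8% of their reads were in models of 2 or more exons.

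PIK3CD, the leukocyte form of the phosphoinositide 3-kinase catalytic subunit, had 149 and 206 reads, against 19 and 26 of PIK3CD-AS2 and 3 and 11 of PIK3CD-AS1. ITGB2-AS1 had 8 and 18 reads against 161 and 242 of ITGB2, the shared chain of the leukocyte integrins, and 76.9% of its reads were in genomic models. ENTPD1-AS1 had 10 and 16 against 127 and 95 of ENTPD1, the ectonucleotidase CD39. CD27-AS1 had 8 and 13 against 309 and 298 of CD27, a costimulatory receptor of lymphocytes, the lowest ratio of the list. TNFRSF14-AS1 had 3 and 9 against 100 and 125 of TNFRSF14, a receptor known as HVEM. MAP3K14-AS1 had 11 and 8 against 32 and 43 of MAP3K14, the kinase of the noncanonical NF-kB pathway, and TRAF3IP2-AS1 had 2 and 8 against 30 and 33 of TRAF3IP2. CARD8-AS1, whose 12 and 13 reads were 96.0% genomic, faced 19 and 35 of CARD8, an inflammasome sensor, the highest ratio of the list.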

How the data were processed

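Raw counts of reads per transcript model, 1 column per replicate, were deposited by the authors. Its name shows that TALON assigned the reads, and its exon numbers and lengths in bases are other properties of each model, deposited beside the counts. Minimap2 and the build hg38 are named in the submitters' processing notes; read filters and strand settings are not given in the sources used here. The 23533 known models all equalled GENCODE release 29 transcripts in exons and length, so positions and gene types come from that release. Per gene, counts were summed over all models. Log2 ratios of replicate 2 to replicate 1 had 0.5 reads added to each count. Wilson intervals and the limit of 3 reads behind a count of 0 cover counting error only. The tests were checked on simulated data. R 4.3.3, edgeR 4.0.16 and DESeq2 1.42.0 gave the alternative scalings; Python 3.11.15, scipy 1.17.1 and statsmodels 0.14.6 gave the tests. With 1 group, edgeR's test could not be used.

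The genes and lists were chosen with earlier results of these data known. Named genes were the 15 with the highest mean CPM, the 5 most positive and 5 most negative log2 ratios of genes that passed between libraries, the 5 highest and 5 lowest antisense to sense ratios among pairs with 10 or more sense reads, the 5 highest known and genomic shares among genes with 50 or more reads, and genes that share a sense symbol. One gene that this rule names is not reported here. Other names were chosen after their values were seen. Alternatives covered scaling, minimum reads, models counted and single libraries.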

Additional observations from a re-analysis of the deposited data

How the results depend on the processing

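No paired analysis was possible because both libraries form 1 group, and leaving out a library gives the value of the other. The number of antisense genes that differed between the libraries was 2 of 115 with TMM (5.12% of all genes tested), DESeq2 scaling (5.09%) and no filter (2.78%). Without genomic models it was 2 of 78 tested (8.26% of all genes), and ALOX12-AS1 replaced OR2A1-AS1. It was 3 of 64 tested with a minimum of 20 reads (6.34%). With known models only it was 0 of 34 tested, where 18.8% of all genes differed. Counting known models, with scaling to their own totals, moved the median log2 ratio of all genes to -0.26. The low read numbers limit most single genes. The share of library reads was 0.103% in known models, 0.165% in models of 2 or more exons and 0.109% without LRRC75A-AS1, an alternative chosen after seeing the data. Read in both libraries by known models were 73 genes.

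Averaged over genes, shares were 33.1% known, 14.7% ISM, 11.9% NIC, 10.6% NNC and 29.7% genomic. Without LRRC75A-AS1 they were 35.9, 14.3, 11.3, 9.10 and 29.3%. With models of at least 2 reads, ISM was 48.5%, NIC 4.48% and NNC 2.10%. With genes of at least 20 reads, ISM was 49.9%, NNC 4.24% and genomic 14.9%. The share in models of 2 or more exons ran from 56.9% to 66.8% under its alternatives, within 1 SD (6.06) of the mean of 62.6%. That SD comes from the gap between the 2 libraries, so each library alone lies within it by construction. The median antisense to sense ratio was 0.533 with 0.5 reads added, 0.614 for genes of at least 20 reads, 0.181 with known models, 0.313 without genomic models, 0.294 with models of 2 or more exons, and 0.253 to 0.357 in single libraries. These medians cover different pairs. With 0.5 reads added all 113 pairs entered, among them the 12 without a sense read, whereas the main value covers 101. The other alternatives used pairs with a sense read under their own counting. How much of each shift came from this was not tested. Pairs with more antisense than sense reads numbered 38 to 52 of 113 under the alternatives that kept all pairs. They numbered 29 in the smaller set of genes with at least 20 reads, a count not comparable with these.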

Other observations

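Other long noncoding genes of the table gave a similar picture of low levels. The 51 genes named LINC and a number with 10 or more reads had a median of 8.01 CPM. Of these, 1 (1.96%) differed between the libraries, against 5.05% of all genes tested. Reads of the LINC genes were 27.0% ± 3.64 known and 21.6% ± 1.72 genomic (SD, n = 2), and 17 of the 51 had no read in a known model. The 243 other genes typed antisense or lincRNA had a median of 6.47 CPM, and 36.7% ± 3.22 of their reads were genomic. Of them 8 (3.29%) differed between the libraries, 7 higher in replicate 2, against 2.72% higher and 2.33% lower among all genes tested. The median gene had 23 reads in LINC genes and 19 in these 243, against 64 in all other genes. Most genes of both classes could therefore pass only with a large difference. The classes overlap, since LINC genes can be typed lincRNA. Of 83 sense partner genes with 10 or more reads, 1 (1.20%) differed between the libraries, and their reads were 53.7% ± 7.47 known (SD, n = 2).

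Small RNA genes lie on the same strand within the bounds of 12 of the 115 antisense genes, in 4 of them small nucleolar RNA genes and in 5 microRNA genes. Another gene overlaps 32 of the 115 on their own strand, so reads without splice junctions may be shared there.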
